A study of Homo sapiens with 26 samples.

Results

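The 4 human HOX clusters were examined as 9 bins of 100 kb, out of 26331 bins with usable values, in 26 single cells. Within each cluster the bins were set by genome position (hg19), not by their values. HOXA was taken as 2 bins on chromosome 7 from 27100001 to 27300000. HOXB was 3 bins on chromosome 17 from 46600001 to 46900000. HOXC was 2 bins on chromosome 12 from 54300001 to 54500000, and HOXD was 2 bins on chromosome 2 from 176900001 to 177100000. Each cluster was compared with the 10 bins (1 Mb) on either side of it, 80 flanking bins in all.

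The cells were KBM7, a human myeloid leukaemia line with a nearly haploid genome, all of 1 clone (5-8), with the labels 1N and DamOnly, that is, Dam without a fusion partner. Dam is a bacterial enzyme that methylates adenine in GATC, and unfused Dam marks chromatin it can reach. All cells had been given 0.5 nM Shield1, a compound that stabilises proteins carrying a destabilising domain, 15 h before harvest, and were sorted as the smallest 2% of cells positive for both Fucci cell cycle markers. Although the series title names lamin B1, its design text and every sample label name Dam alone, and there was no untreated or other group. Cells of 1 clone are not replicate cultures. Each SD below is therefore a spread between cells, results are given as numbers of cells, and no p-value was computed.

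HOX genes encode homeodomain transcription factors that set positional identity along the body axis, and each cluster lists its genes in the order of the body regions they pattern. In cells that do not use them, the clusters are known as broad domains of Polycomb repression, and trithorax-group proteins keep the used ones active. In blood, HOXA9 and HOXA10 act in stem and progenitor cells and are often highly expressed in myeloid leukaemia, and HOXB3 and HOXB4 are also active in blood stem cells. HOXC8 and HOXC9 pattern the trunk, HOXD9 acts in trunk and limb, and HOXD13 shapes digits. All 39 human HOX genes were found in the RefSeq gene table (GRCh38.p14), 11 in HOXA, 10 in HOXB, 9 in HOXC and 9 in HOXD. That table is of another build than the bins, so it was used for gene order only. A bin holds several genes, and no value here belongs to a single gene.

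The clusters also encode microRNAs, shown here because clusters that differed in Dam signal carry copies of 1 family. By RefSeq (GRCh38.p14), MIR196B lies between HOXA9 and HOXA10, MIR196A1 between HOXB9 and HOXB13, and MIR196A2 between HOXC10 and HOXC9. The 5p mature products of these 3 genes share the seed AGGUAGU. MIR10A lies between HOXB4 and HOXB5, and MIR10B between HOXD8 and HOXD4. Only the 3p product of MIR10B was available here, so its seed is not to be compared with that of the 5p product of MIR10A. Capitals mark the seed, bases 2 to 8, and sequences run 5′ to 3′.
hsa-miR-196b-5p (HOXA): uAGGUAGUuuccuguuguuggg
hsa-miR-196a-5p (HOXB and HOXC): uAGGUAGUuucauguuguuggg
hsa-miR-10a-5p (HOXB): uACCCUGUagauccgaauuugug
hsa-miR-10b-3p (HOXD): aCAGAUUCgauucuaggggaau

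The substrate of Dam can be seen in the promoters of the members. The RefSeq promoter table (GRCh38.p14) held entries for 3 of the 8 example genes. The 250 bases before the start are printed for HOXA9 (chr7:27165538-27165787, minus strand), for the more upstream of 2 HOXA10 starts (chr7:27179862-27180111, minus strand) and for HOXD13 (chr2:176092471-176092720, plus strand). Capitals mark GATC, which reads the same on both strands. It occurred 2 times before HOXA9, 2 times before HOXA10 and 0 times before HOXD13, and in 35.8% of 35116 RefSeq promoters over the same length. Of 27 HOX promoter entries 11 (40.7%) held it, close to that share. These windows are far shorter than a bin, and the number of GATC sites per bin was not analysed.
HOXA9: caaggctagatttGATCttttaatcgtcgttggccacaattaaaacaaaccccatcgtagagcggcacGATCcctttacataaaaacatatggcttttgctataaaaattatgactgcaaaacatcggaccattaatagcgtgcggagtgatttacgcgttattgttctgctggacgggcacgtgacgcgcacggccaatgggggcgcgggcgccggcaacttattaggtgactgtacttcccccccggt
HOXA10: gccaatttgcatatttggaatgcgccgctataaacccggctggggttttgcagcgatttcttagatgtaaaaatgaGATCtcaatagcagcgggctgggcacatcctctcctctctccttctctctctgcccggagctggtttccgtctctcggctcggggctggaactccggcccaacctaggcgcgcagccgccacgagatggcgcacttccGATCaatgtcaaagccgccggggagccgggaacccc
HOXD13: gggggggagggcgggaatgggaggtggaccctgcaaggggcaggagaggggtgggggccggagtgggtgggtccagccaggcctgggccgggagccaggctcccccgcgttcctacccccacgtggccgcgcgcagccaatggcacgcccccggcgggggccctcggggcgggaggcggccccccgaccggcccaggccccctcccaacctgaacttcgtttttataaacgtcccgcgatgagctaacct

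The deposited value of a bin in a cell is a ratio, read as observed over expected signal. A level is the mean ratio of a cluster's bins divided by the mean over all used bins of that cell, so 1 is the cell's average. Whole counts recovered from the ratios totalled 20182 to 178941 per cell, with a median of 42448.5, or 0.766 to 6.80 counts per used bin. One cluster in one cell therefore held between 0 and 37 counts. The cell type cannot be checked from markers in such data. The deposited table does list derivative chromosomes of 9 and 22, the translocation that KBM7 carries. Chromosome names are not a measured signal, so this listing does not check the identity of the cells.

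The 4 clusters did not share one level. HOXA was highest, at 2.54 ± 1.09 (SD, n = 26 cells), and was the highest of the 4 in 20 cells. HOXC followed at 1.46 ± 1.73, HOXB at 1.15 ± 0.526 and HOXD at 0.969 ± 1.03. The medians kept HOXA first at 2.32 and placed the others closer together, at 1.18 for HOXC, 1.14 for HOXB and 0.841 for HOXD. Within cells, HOXA lay above HOXB in 24 cells, above HOXC in 23 and above HOXD in 24. The other 3 of the 6 pairs did not reach the 21 of 26 cells used below to call a side. HOXB was above HOXC in 13 cells and below it in 12, HOXB was above HOXD in 17, and HOXC was above HOXD in 18. Relative to the mean of their own chromosomes HOXB exceeded HOXC in 11 cells and HOXD in 9.

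**Figure D1:**
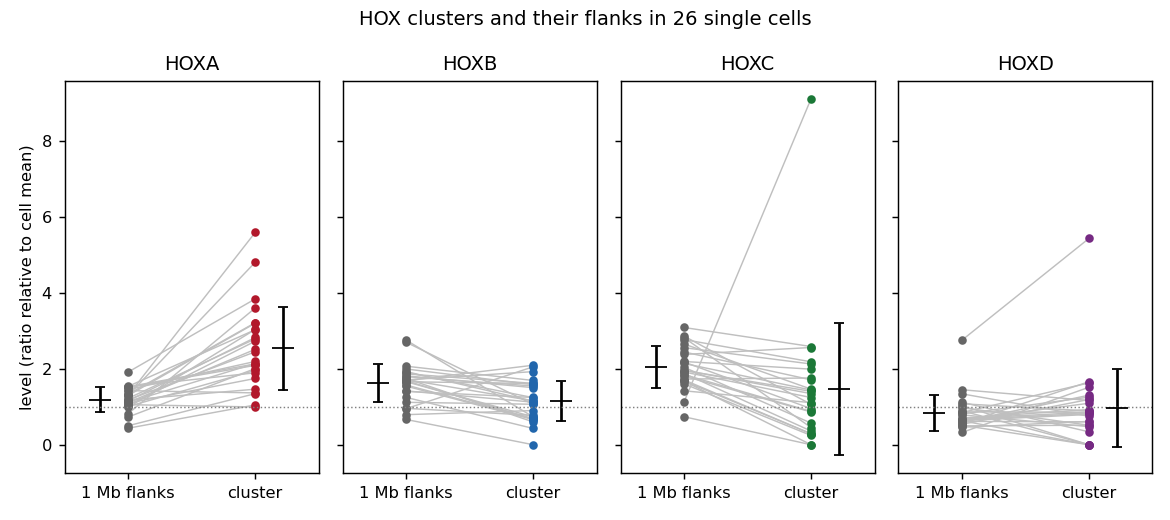
Levels of the 4 HOX clusters and of their 1 Mb flanks in each of 26 cells, as ratios relative to the cell mean (dotted line at 1). Lines join the flanks and the cluster of a cell, and black bars give the mean ± SD. HOXA lies above its flanks in 24 cells, HOXB and HOXC lie below theirs in 22 and 23, and HOXD lies on either side. Single cells stand far above the rest in HOXC (9.11) and HOXD (5.43).

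HOXA, the cluster of HOXA9 and HOXA10, stood above the DNA around it. Its level ran from 0.994 in the lowest cell through a median of 2.32 to 5.59 in the highest, against 0.435, 1.18 and 1.91 in the flanks. The ranges of cluster and flanks overlapped, but 24 of 26 cells had the cluster above their own flanks. The mean difference was 1.35 ± 1.02 (SD, n = 26). A window was placed on a side of its flanks when at least 21 of 26 cells (80%) agreed, which held on the upper side for 5.47% of 25508 windows of 2 bins across the genome.

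Summed over cells, HOXA held 371 counts and had 2.11 times the signal of its flanks per unit of expectation, with an exact 95% interval from 1.88 to 2.37. Of all windows of 2 bins, 2.63% reached 2-fold. Against all other used bins the HOXA ratio was 2.60 (2.34 to 2.88). Such intervals hold counting error alone, and the handling of PCR duplicates was not given in the sources used here. In 13 cells the interval of the cell's own counts, not adjusted for the number of cells, lay above 1, and in none below it. How many such cells other windows have was not computed, so these numbers, here and for the clusters below, lack a background. The exceptions on the lower side, cells 20 and 23, held 4 and 2 HOXA counts, and the intervals of their own ratios to the flanks included 1.

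Both HOXA bins were high, and on average each exceeded the single bin next to it outside the cluster. The bin at 27100001 to 27200000 averaged 1.98 ± 0.891 with at least 1 count in all 26 cells. It ranked 4 among the 22 bins of cluster and flanks, and was below its low-coordinate neighbour in 5 cells. The bin at 27200001 to 27300000 averaged 3.09 ± 1.66, the highest of the 22 bins of the domain, and exceeded the first bin in 21 cells. HOXA13 is the last gene of the cluster at its high-coordinate end, so the higher value was on the side of HOXA13. The single bins next to the cluster averaged 0.794 ± 0.945 on the low-coordinate side and 0.989 ± 0.913 on the high-coordinate side. The cluster exceeded both of them in 21 cells. The share of other windows that did so was not computed.

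The HOXA flanks were not alike. The low-coordinate flank averaged 1.39 ± 0.549 and the high-coordinate flank 0.977 ± 0.330, with the former higher in 19 cells. The 3 outermost bins of the low side, from 26100001 to 26400000, averaged 2.74, 1.93 and 2.39, and the other low-side bins 0.794 to 1.17. HOXA was above the low flank in 23 cells and above the high flank in all 26. Chromosome 7 as a whole had a level of 0.918 ± 0.0909, and HOXA was above it in 25 cells.

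HOXB, which holds HOXB3 and HOXB4, had a level close to the cell average but below its neighbourhood. It ran from 0 in cell 22 through a median of 1.14 to 2.09, against 0.665, 1.69 and 2.76 in the flanks. The difference of cluster minus flanks was -0.48 ± 0.636 (SD, n = 26), and the cluster was below its flanks in 22 of 26 cells, where 17.3% of 25378 windows of 3 bins were placed below theirs. The median window lay above its flanks in 10 cells, so a position below the flanks is common.

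The 225 HOXB counts gave 0.654 times the flank signal (exact 95% interval 0.567 to 0.751) and 1.15 times that of all other used bins (1.01 to 1.31). The interval of a single cell's own counts lay below 1 in 6 cells and above it in 0. HOXB was also below the mean of chromosome 17, 1.47 ± 0.205, in 20 cells and above it in 6. The placement was the least secure of those made: it was lost in 7 of 15 alternatives, for example with 18 cells below flanks of 0.5 Mb and 16 below the median flank bin. The mean difference was then -0.29 and -0.15.

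The 3 HOXB bins were alike, at 1.23 ± 0.819, 1.04 ± 1.04 and 1.17 ± 0.897, and so were the 3 bins beyond the HOXB13 end, at 1.17, 1.10 and 0.881. The low signal thus ran past the cluster on that side. On the HOXB1 side the next bin was higher, at 1.72 ± 0.992, and exceeded the first HOXB bin in 16 cells. Among the flanking bins, 47400001 to 47500000 was highest at 2.75 ± 2.27.

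HOXC, with HOXC8 and HOXC9, lay in a strongly marked neighbourhood and was below the mean of its flanks in most cells. Its flanks averaged 2.04 ± 0.552, the highest of the 4 sets of flanks, while chromosome 12 as a whole was at 1.08 ± 0.137. The HOXC level was 0 in 2 cells, had a median of 1.18 and reached 9.11 in cell 23. The next highest cell was at 2.59. The cluster was below its flanks in 23 of 26 cells, against 16.0% of windows of 2 bins placed below. Cluster minus flanks was -0.58 ± 1.85 (SD, n = 26) with cell 23 and -0.93 ± 0.608 (n = 25) without it.

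By summed counts, 185 in HOXC, the cluster had 0.673 times the signal of its flanks (exact 95% interval 0.577 to 0.782), and 0.613 times (0.521 to 0.717) without cell 23. Against all other used bins it was at 1.41 (1.22 to 1.63). Cells with their own interval below 1 numbered 4, and cell 23 alone lay above 1. The placement below the flanks was lost in 3 of 15 alternatives: with 18 cells against the median flank bin, with 18 when every cell was thinned to 20000 counts, and with 23 when 90% of cells had to agree. The mean difference was -0.19 against the median flank bin, -0.28 with flanks of 2 Mb and -0.37 against the high-coordinate flank alone.

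The HOXC neighbourhood had a stepped profile. From 53300001 to 54200000 the bins averaged between 1.51 and 3.31, and the bin just before the HOXC13 end fell to 0.810 ± 0.758. The cluster bins were at 1.40 ± 1.91 and 1.52 ± 1.86, with a ratio of 1 or more in 11 and 13 cells. The bin after the cluster was at 1.53 ± 1.09. The first cluster bin was above the bin before it in 12 cells and below it in 12. The last cluster bin was above the bin after it in 9 cells and below it in 14. The lower signal was thus not confined to the cluster. Then came 3 high bins from 54600001 to 54900000, the first of them the highest of the 4 domains, at 4.36 ± 2.64, 3.20 ± 2.06 and 3.22 ± 1.84, with at least 1 count in 26, 26 and 25 cells. Beyond HOXC, RefSeq lists SMUG1, CBX5, HNRNPA1 and NFE2 in that order. CBX5 encodes a heterochromatin protein, HNRNPA1 an abundant RNA-binding protein, and NFE2 a blood transcription factor. Their bins were not assigned.

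HOXD, with HOXD9 and HOXD13, was not distinguished from the low signal around it. Its level was 0 in 4 cells, had a median of 0.841 and reached 5.43 in cell 22, against 0.322, 0.693 and 2.75 for the lowest, median and highest flanks. It was above its flanks in 14 cells and below in 12, so it was on neither side. The difference was 0.12 ± 0.785 (SD, n = 26), and 0.02 ± 0.598 (n = 25) without cell 22. The 120 HOXD counts gave 1.10 times the flank signal, with an exact 95% interval from 0.899 to 1.33. A level of 0 says that no count was recovered, not that the cluster was unmarked. The interval of a cell's own counts lay above 1 in 1 cell, cell 2, and in 0 cells below it.

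The HOXD comparison depended on how far the flanks reached. With flanks of 0.5 Mb the summed ratio was 1.31 (1.06 to 1.61), and with flanks of 2 Mb it was 0.892 (0.737 to 1.07), with the cluster above in 10 cells. HOXD bins averaged 0.863 ± 0.974 at 176900001 and 1.08 ± 1.40 at 177000001. The bin after the HOXD1 end was the lowest of the domain, at 0.435 ± 0.673, with a ratio of 1 or more in 5 cells. Of 20 flanking bins the outermost, at 178000001 to 178100000, was highest at 1.96 ± 1.24. HOXD was above the mean of chromosome 2, 0.914 ± 0.109, in 9 cells.

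**Figure D2:**
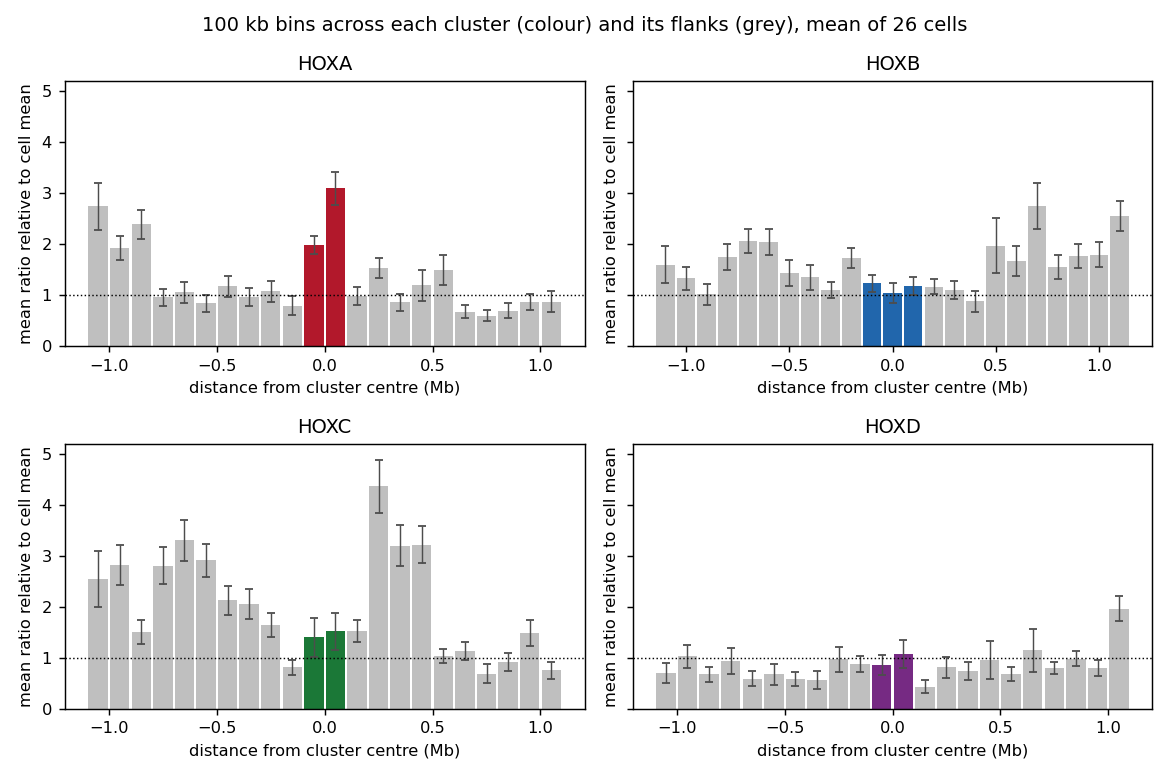
Mean ratio relative to the cell mean in each 100 kb bin, by distance from the cluster centre in Mb, for the clusters (colour) and their flanks (grey). Bars are means over 26 cells, error bars are the SD divided by the square root of 26, and the dotted line is at 1. These error bars are narrower than the SD between cells. Since cells of 1 clone are not replicate cultures, they do not give the precision of a mean over cultures. The HOXA bins rise to 1.98 and 3.09 between neighbours below 1. HOXB and HOXC lie in stretches of lower signal that are not confined to the clusters. HOXD is near the mean of its 1 Mb flanks.

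Read by single bins, HOXA also stood apart. A bin counted as positive where its ratio was at least 1. Both HOXA bins were positive in 24 cells, whereas the other 7 cluster bins were positive in 9 to 14. Positive in at least 21 cells were thus 2 of 9 cluster bins, both in HOXA, where 5.61% of all used bins met that rule. With positive set at 2 or more, 1 of the 9 bins met it, so 1 of the 2 HOXA bins did not. The expectation of the 9 bins was 1.03 to 1.32 times that of the median bin, so none of these values rests on a bin of very small expectation.

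**Figure D3:**
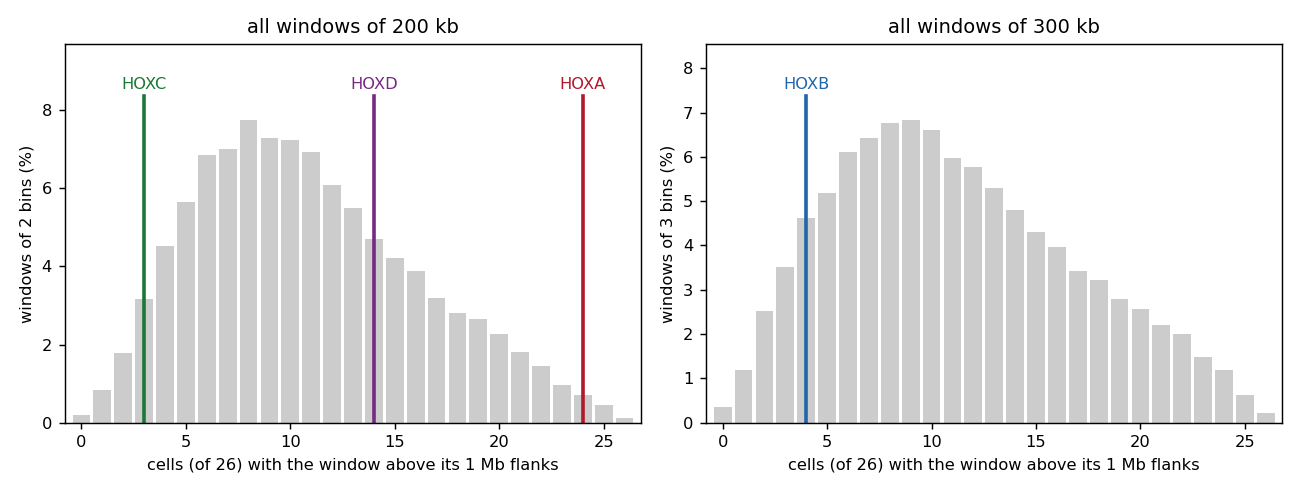
Percent of all windows of 2 bins (left) and 3 bins (right) by the number of 26 cells in which the window lies above its 1 Mb flanks. Coloured lines mark HOXA at 24 cells, HOXD at 14, HOXC at 3 and HOXB at 4. HOXA is in the upper tail of the windows, and HOXB and HOXC are in the lower part.

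The clusters differed in how far their counts varied between cells, mostly through 1 cell each in HOXC and HOXD. The counts of a cluster were compared with those expected from each cell's depth by a heterogeneity chi-square divided by its degrees of freedom, which is about 1 under counting noise alone. HOXA gave 1.65 and HOXB 1.70, where the median window gave 1.77 (2 bins) and 1.90 (3 bins). For HOXC it was 5.15 and for HOXD 2.59. Values of 2 or more were found in 36.7% of windows of 2 bins and 44.8% of windows of 3 bins, so passing 2 is common.

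In HOXC and HOXD the excess went with 1 cell each. Without cell 23 the HOXC value was 1.86, and without cell 22 the HOXD value was 1.15. Cell 23 held 18 HOXC counts, 9.73% of those of all cells, where its depth gave 2.70. They were spread over both bins, 10 and 8, at ratios of 9.61 and 8.61, while both adjoining bins were at 0 and no flanking bin held more than 4 counts. In that cell HOXC was at 7.68 times its flanks (exact 95% interval 3.86 to 15.1). In the same cell 0.227% of windows of 2 bins were at a level of 9 or more. Cell 23 was chosen after its value was seen, and it was among the 6 cells of lowest coverage, with 21657 counts in all.

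Cell 22 differed from this. It held 10 HOXD counts, where its depth gave 1.76, but its HOXD flanks were high too, at 2.75, and the cluster was at 1.81 times the flanks (0.818 to 3.60). It was also of low coverage, with 21105 counts. Without it the HOXD level was 0.791 ± 0.496 (SD, n = 25). Without cell 23 the HOXC level was 1.16 ± 0.773 (n = 25). Whether these cells' values arose in amplification was not tested.

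**Figure D4:**
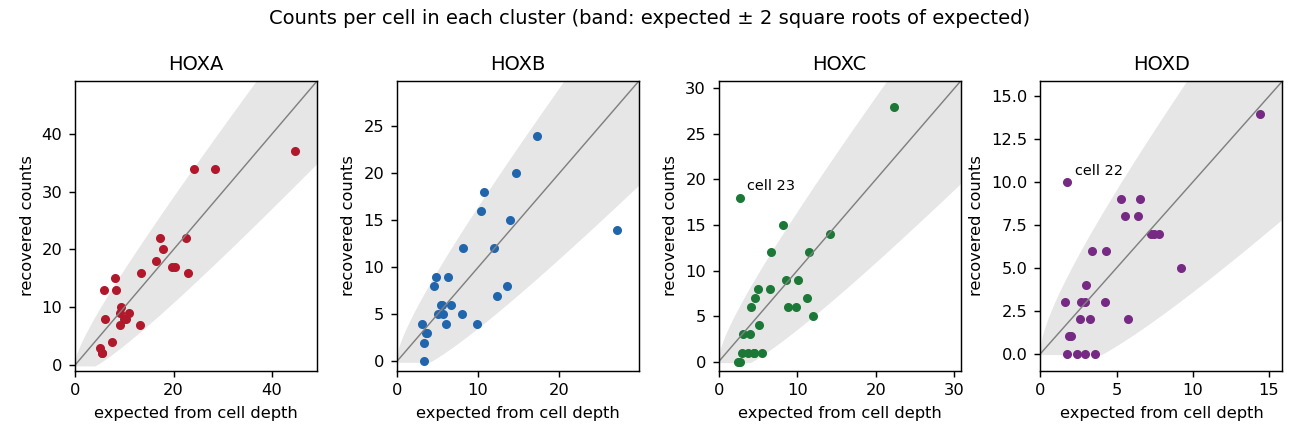
Recovered counts of each cluster in each of 26 cells (vertical) against the counts expected from the cell's depth and the cluster's total (horizontal). The line marks equality and the grey band the expected count ± 2 of its square roots. Cell 23 holds 18 HOXC counts and cell 22 holds 10 HOXD counts, both far above the line, whereas HOXA follows depth more closely than HOXC does.

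The clusters did not go up and down together in a clear way. Over 26 cells the Pearson correlations of the 6 pairs of levels ran from -0.42 (HOXB with HOXD) to 0.29 (HOXA with HOXB), and the Spearman correlations from -0.24 to 0.30. The 2 cells farthest from the median HOXB level carried most of the value for HOXB with HOXD, which was -0.053 without them. Leaving out the same cells moved HOXB with HOXC from -0.23 to -0.36. Levels of a cell share its library and depth, and with as few as 0 to 3 counts per cluster in shallow cells such values describe these cells only.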

How the data were processed

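Single-cell DamID was analysed in 26 KBM7 cells of 1 group. Per the labels' protocols, DpnI cut the methylated GATC sites, and adapter-ligated fragments were amplified by PCR. Cutadapt, Bowtie2 2.1.0 and hg19 are named in the submitters' processing notes. For each cell and 100 kb bin the authors deposited a linear ratio, read as observed over expected because the table's name has OE and cell means lie near 1. Read counting, masking and the expectation were not given in the sources used here.

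Of 30376 bins, 3792 had no value and 253 were 0 in all cells, which left 26331. Each column was matched to 1 sample by its number. Whole counts and a relative expectation per bin were recovered per bin from the steps between ratios, as the lowest whole-number solution (largest distance from a whole number 2.77e-13, tolerance 0.001). Clusters were compared with 1 Mb flanks within cells. The background was every window of the same number of bins with at least 16 used flanking bins. Intervals for summed counts are exact conditional binomial (Clopper-Pearson) at 95%. Alternatives changed the flanks, the bins, the cells, the depth and the thresholds. The procedures were tested on simulated data with counting noise alone and the same fold in every cell. Those data lack the wider spread between cells seen here, so the side rule was not tested under it. The genes named were the 8 examples given for the clusters and, for order only, the other HOX genes and their neighbours. The clusters, members and lists were chosen with earlier results of these data known. Intervals used scipy 1.17.1, and tables pandas 2.3.3 and numpy 2.4.6, under Python 3.11.15; plots used matplotlib 3.10.9.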

Additional observations from a re-analysis of the deposited data

How the results depend on the processing

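Of 228 recomputed values, 206 kept their direction and side, or moved by less than the limit set for their kind. For levels and differences the limit was the SD between cells. That is wide: 1.73 for the HOXC level of 1.46 and 1.03 for the HOXD level of 0.969. The HOXD difference stayed within it though its sign changed with flanks of 2 Mb (-0.061). A side set at 70% of cells could not remove a placement made at 80%. The number 206 is therefore no measure of robustness. The HOXA level, difference, side, summed ratio, chi-square and order against the other clusters were kept in all alternatives run. Its single-bin result was not: with positive at 2 or more, 1 of the 2 HOXA bins no longer met the rule. The cluster was above its flanks in 20 to 26 cells (20 being all cells left without the 6 of lowest coverage). Its summed ratio ran from 2.11 to 2.59. HOXB was placed below its flanks no longer with summed counts (20 cells), flanks of 0.5 Mb (18), flanks of 2 Mb (19), the low-coordinate flank alone (19), the median flank bin (16), thinning to 20000 counts (19), or a side set at 90% of cells (22). HOXC was no longer placed with the median flank bin (18), thinning (18) or 90% of cells (23). The cause was not tested, except that a stricter share of cells leaves fewer windows placed.

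HOXD, on neither side, was above 2 Mb flanks in 10 cells with a summed ratio of 0.892, and at 1.31 over 0.5 Mb flanks. Relative to the same chromosome, HOXB exceeded HOXC in 11 cells and HOXD in 9. With positive at 2 or more, 1 cluster bin, in HOXA, was positive in at least 80% of cells. The HOXC chi-square per degree of freedom was 1.86 without cell 23, 1.80 without cells 22 and 23 and 1.82 without the 6 cells of lowest coverage. For HOXD it was 1.15 without cell 22, 1.11 without both cells and 1.08 without the 6. Leaving out cell 23, alone or with cell 22, was chosen after the data were seen. No paired analysis was possible because all 26 cells form a single group, so that no samples pair across groups. Clusters and flanks were compared within cells. Depth limits single cells, with a median of 3.5 to 13 counts per cluster. The interval of a cell's own counts excluded 1 in 13 cells for HOXA and in 6 for HOXB. It did so in 4 cells below and 1 above for HOXC, and in 1 for HOXD. Such numbers were not computed for other windows. Mappability, GC content, GATC density and DNA copy number per bin were not analysed.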

Other observations

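Values of the other clusters in the 2 cells that stood apart are given here without a comparison. Cell 23 held 2 counts in HOXA, 2 in HOXB, 18 in HOXC and 0 in HOXD. Cell 22 held 2 counts in HOXA, 0 in HOXB, 0 in HOXC and 10 in HOXD. The median cell held 13 counts in HOXA, 6.5 in HOXB, 6 in HOXC and 3.5 in HOXD.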
